A study of Mus musculus with 6 samples.

Results

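The inflammasome and pyroptosis genes examined here were Nlrp3, Nlrp1b, Nlrc4, Aim2, Pycard, Casp1, Casp4 and Gsdmd, chosen by gene name, and the 8 of them were found among the 33971 genes of the expression table. The samples were articular cartilage of WT mice aged 2 months (3 libraries) and 18 months (3 libraries), with no treatment and no other genotype in either group, sequenced as poly(A) RNA with strand-specific paired-end libraries that carried molecular identifiers. The comparison asked which transcripts differ between young and aged cartilage. The number of animals behind a library was not given in the sources used here, so p-values measure the spread between these libraries, which may in part be technical.

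Inflammasomes are protein complexes that assemble in the cytosol when a sensor meets a microbial product or a sign of cell damage. The sensor recruits the adaptor ASC, which gathers and activates caspase-1, and caspase-1 then cuts the precursors of interleukin-1 beta and interleukin-18 and opens the pore protein gasdermin D, which ends in pyroptosis, a lytic form of cell death. The pathway is best known from myeloid cells and, in joint tissue, from inflammation of cartilage and synovium.

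The libraries differed in more than the age on their labels. Total counts lay between 48171507 and 59085179. The 2-month libraries held 88239 to 102417 Xist counts and 33 to 59 counts of 4 Y-linked genes together (Ddx3y, Eif2s3y, Kdm5d and Uty), whereas the 18-month libraries held 11 to 30 and 12777 to 13492, although the study's methods describe male mice. This difference and age cannot be told apart. Among the 2-month libraries, replicate 2 stood apart. Ptprc, the leukocyte antigen CD45, was at 5.45 FPKM (fragments scaled by transcript length and library depth) in it, against 0.0333 and 0.378 in replicates 1 and 3 and 21.4 to 28.6 at 18 months. The fold changes of the 8 genes, those of the other pathway genes named as called and the counts of calls in each list are therefore given with and without it. The summed level of 16 chondrocyte markers was 68050 to 80170 CPM (counts scaled to a common library total) at 2 months and 8246, 1919 and 1908 at 18 months. All 16 were called lower, beside 21.3% of all genes tested.

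As a group, the 8 genes were higher in 18-month cartilage. Their summed CPM values were 8.13, 66 and 14.2 in 2-month replicates 1, 2 and 3 and 273.2, 266 and 264.8 in the 18-month libraries. Each of the 8 was higher in every 18-month library than in every 2-month library, as were 33.9% of all genes tested. Of the 8, 6 were called higher and 0 lower (edgeR, adjusted p below 0.05 and a log2 fold change above 1 or below -1), beside 14.9% called higher and 21.3% called lower among 20397 genes tested. The median log2 fold change of the 8 was 3.18, beside -0.02 over all genes tested. Aim2 and Nlrp1b did not pass. Without 2-month replicate 2, 8 of 8 were called, beside 23.3% of all genes. That library was the highest 2-month library for each of the 8, so leaving it out raises their fold changes by construction. The smaller p-values without it, here and below, are therefore no separate support. In this bulk tissue, fewer cells of a type and less RNA per cell cannot be told apart.

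Sequence upstream of the genes was read to show which known motifs of myeloid and inflammatory promoters lie there. RefSeq promoters on GRCm38.p6 were matched for 7 of the 8 genes, with 10 start sites in all, and the 250 bases before each start site were searched on both strands. The windows shown hold a match, in capitals, and run 5′ to 3′ along the gene's own strand. The first 4 windows hold the core recognised by PU.1 (GAGGAAG, or its reverse complement in Pycard), a transcription factor of myeloid cells among others. The last pair holds a match to the NF-kappaB motif.
Aim2, chr1:173420471-173420517, plus strand: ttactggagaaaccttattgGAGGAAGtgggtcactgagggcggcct
Pycard, chr7:127993884-127993930, minus strand: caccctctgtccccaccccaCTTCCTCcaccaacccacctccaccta
Nlrp1b, chr11:71230803-71230849, minus strand: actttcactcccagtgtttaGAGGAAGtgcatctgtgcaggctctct
Nlrp3 (downstream start site), chr11:59542630-59542676, plus strand: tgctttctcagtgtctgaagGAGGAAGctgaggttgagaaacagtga
Casp4, chr9:5308736-5308785, plus strand: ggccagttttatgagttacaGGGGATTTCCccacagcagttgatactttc
Nlrp3 (upstream start site), chr11:59541363-59541412, plus strand: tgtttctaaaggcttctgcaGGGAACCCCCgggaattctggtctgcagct

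The PU.1 core lay 106 bases before the Aim2 start site, 36 before that of Pycard, 89 before one of the start sites of Nlrp1b and 29 before the downstream start site of Nlrp3. That Nlrp3 promoter also held its reverse complement, 123 bases before the start site, in a window not shown. The core was present in 4 of the 10 promoters and in 10.6% of 32851 mouse promoters. The NF-kappaB motif was present in 3 of the 10, of which a pair are overlapping Casp4 promoters, and in 3.9% of all promoters. The paired half-sites of interferon-stimulated response elements (GAAANNGAA) were in 0 of the 10 and in 7.13% of all. No window overlapped an annotated exon of its gene. These matches describe letters in a window and carry no measurement of binding.

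By mean level per length at 18 months, Nlrp3, Nlrc4 and Nlrp1b were the lowest of the 8 genes and Aim2 was among the middle ones. Nlrp3, the sensor of ion flux and membrane damage, lies on chr11:59541568-59566956 of GRCm38, plus strand. It was at 0.0756, 0.754 and 0.0928 FPKM in 2-month replicates 1, 2 and 3, from 17, 180 and 22 counts. At 18 months it was at 5.78, 4.75 and 5.02 FPKM, from 1579, 1213 and 1299 counts. The groups did not overlap, and the highest 2-month library was replicate 2. The mean moved from 0.307 ± 0.387 FPKM (SD, n = 3) to 5.18 ± 0.537. Nlrp3 rose 16.5-fold (log2 fold change 4.04, SE 0.94, adjusted p = 0.0159, edgeR). Without 2-month replicate 2 the log2 fold change was 5.80 (SE 0.21, adjusted p = 4.98e-05). Nlrp3 was called with any 1 of the 6 libraries left out.

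Nlrc4, which binds NAIP proteins that have met bacterial flagellin or secretion needles, lies on chr17:74425438-74459142, minus strand. It was at 0.0504, 0.51 and 0.0699 FPKM in the 2-month libraries and at 2.19, 2.19 and 1.71 in the 18-month libraries. It thus stood low in 2-month replicates 1 and 3, with 14 and 19 counts, and higher in replicate 2, with 144. Nlrc4 rose 9.44-fold (log2 fold change 3.24, SE 0.90, adjusted p = 0.0285, edgeR). The log2 fold change was 4.93 without 2-month replicate 2 (SE 0.29, adjusted p = 0.000116). The call was lost, with edgeR adjusted p up to 0.0753, when 2-month replicate 3, 18-month replicate 1, 18-month replicate 2 or 18-month replicate 3 was left out. A processed pseudogene on the same strand inside the gene's span held 2 to 18 counts in each library.

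Aim2, the sensor of double-stranded DNA in the cytosol, lies on chr1:173350879-173466040, plus strand. It had 0, 519 and 68 counts in 2-month replicates 1, 2 and 3, or 0, 2.52 and 0.342 FPKM. A count of 0 in replicate 1 allows up to 0.0621 CPM. At 18 months it had 1976, 2288 and 1984 counts, or 8.38, 10.4 and 8.87 FPKM. The groups did not overlap, but the 2-month libraries ran from 0 to 27.3% of the 18-month mean in CPM, and the test did not pass (log2 fold change 3.26, SE 1.57, adjusted p = 0.129, edgeR). Without 2-month replicate 2 it passed (5.62, SE 1.13, adjusted p = 0.00772). Aim2 shares bases with Cadm3 on the opposite strand, and whether the counting used strand was not given in the sources used here. Cadm3 had 0, 215 and 42 counts at 2 months and 474, 575 and 443 at 18 months.

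Nlrp1b, a sensor of proteases and of blocked DPP8 and DPP9, lies on chr11:71153102-71230733, minus strand, and was the lowest of the 8. It had 0, 95 and 6 counts at 2 months, or 0, 0.254 and 0.0154 FPKM, and 277, 156 and 165 counts at 18 months, or 0.651, 0.393 and 0.409 FPKM. The 18-month libraries were all above the 2-month libraries, with replicate 2 the nearest. The difference did not pass (log2 fold change 2.39, SE 1.46, adjusted p = 0.212, edgeR). It did without 2-month replicate 2 (5.67, SE 0.96, adjusted p = 0.00408). Nlrp1a is a close copy of this gene, so the division of reads between them is uncertain.

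By mean FPKM at 18 months, Pycard, Casp1 and Gsdmd were above all these sensors, whereas Casp4 (6.40) was below Aim2 (9.21). Pycard encodes ASC, the adaptor that links NLRP3 and AIM2 to caspase-1, and lies on chr7:127989708-127993867, minus strand. It was at 0.604, 2.82 and 0.724 FPKM at 2 months, from 127, 626 and 155 counts. At 18 months it was at 12.8, 10.9 and 11.4 FPKM, from 3271, 2606 and 2762 counts. Its 2-month counts were the highest of the 8 genes in replicate 1, and the groups did not overlap. Pycard rose 8.26-fold (log2 fold change 3.05, SE 0.61, adjusted p = 0.0094, edgeR). Without 2-month replicate 2 the log2 fold change was 4.03 (SE 0.15, adjusted p = 5.02e-05). It was called with any 1 library left out.

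Casp1 and Casp4 are neighbours on the plus strand of chromosome 9, with 1537 bases between them. Casp1, the protease at the centre of the canonical inflammasome, lies at chr9:5298508-5307290. It was at 0.309, 2.7 and 0.579 FPKM at 2 months and at 10.9, 11.6 and 11.4 at 18 months. Relative to their mean, its 18-month libraries differed least among themselves of the 8 genes, at 11.3 ± 0.354 FPKM (SD, n = 3). Casp1 rose 9.28-fold (log2 fold change 3.21, SE 0.80, adjusted p = 0.0194, edgeR). With 2-month replicate 2 left out, the log2 fold change was 4.56 (SE 0.31, adjusted p = 0.000171). Its call was lost, with edgeR adjusted p up to 0.0639, when 2-month replicate 3, 18-month replicate 2 or 18-month replicate 3 was left out.

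Casp4, the mouse gene of caspase-11, encodes the receptor for bacterial lipopolysaccharide in the cytosol and drives the non-canonical pathway. It lies at chr9:5308828-5336783 and was at 0.272, 1.93 and 0.562 FPKM at 2 months and at 5.67, 6.88 and 6.66 at 18 months. The 2-month replicate 2 library again lay between the other 2-month libraries and the aged ones. Casp4 rose 6.72-fold (log2 fold change 2.75, SE 0.68, adjusted p = 0.0194, edgeR). The fit without 2-month replicate 2 gave 3.80 (SE 0.36, adjusted p = 0.000517). The call was lost, with edgeR adjusted p up to 0.0692, on leaving out 2-month replicate 3, 18-month replicate 2 or 18-month replicate 3.

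Gsdmd, the pore that both caspases open, lies on chr15:75862327-75867408, plus strand, and was the most abundant of the 8 per length in every library. It was at 0.933, 6.65 and 1.43 FPKM at 2 months, from 123, 927 and 193 counts, and at 28.8, 25.8 and 27.4 FPKM at 18 months, from 4608, 3852 and 4151 counts. The groups did not overlap. Gsdmd rose 8.9-fold (log2 fold change 3.15, SE 0.75, adjusted p = 0.0165, edgeR). It was 4.41 on the log2 scale without 2-month replicate 2 (SE 0.23, adjusted p = 8.75e-05). Its call was lost on leaving out 2-month replicate 3 (edgeR adjusted p = 0.0548). Across the 8 genes, then, the number called fell from 6 to 2 without 2-month replicate 3 and to 3 without 18-month replicate 2 or 18-month replicate 3, and rose to 8 without 2-month replicate 2. It was 5 without 18-month replicate 1 and 6 without 2-month replicate 1. Over all genes, calls in either direction moved too, from 7401 of 20397 to 5640 of 21356 without 2-month replicate 3. They were 5799 of 21396 without 18-month replicate 2 and 5782 of 21365 without 18-month replicate 3. Without 2-month replicate 2 they were 9583 of 21489.

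**Figure D1:**
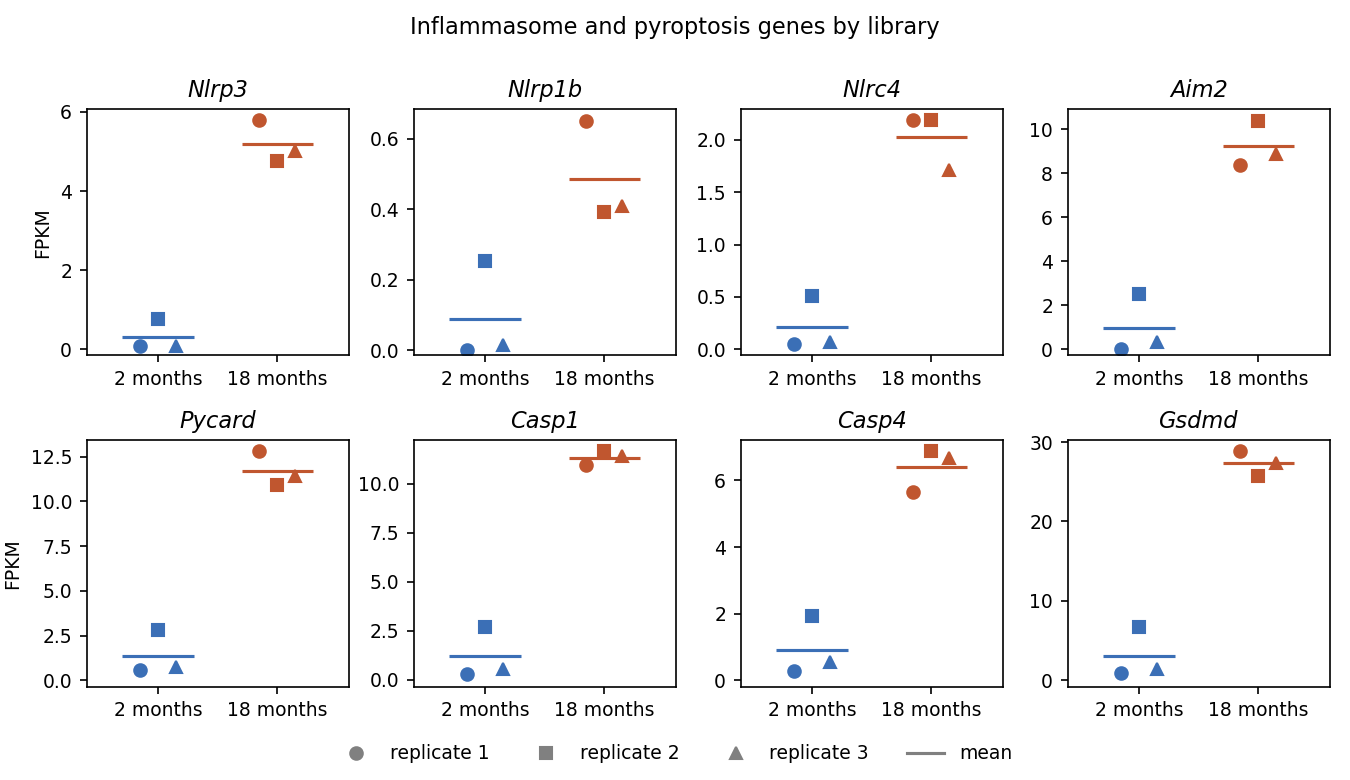
FPKM of each of the 8 genes in each of the 6 libraries, with 1 panel and 1 linear axis for each gene, symbols for the replicates and a line at the mean of each age. Each gene's 18-month libraries lie above all its 2-month libraries, and 2-month replicate 2 is the highest 2-month library for every gene; Aim2 and Nlrp1b had 0 counts in 2-month replicate 1.

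**Figure D2:**
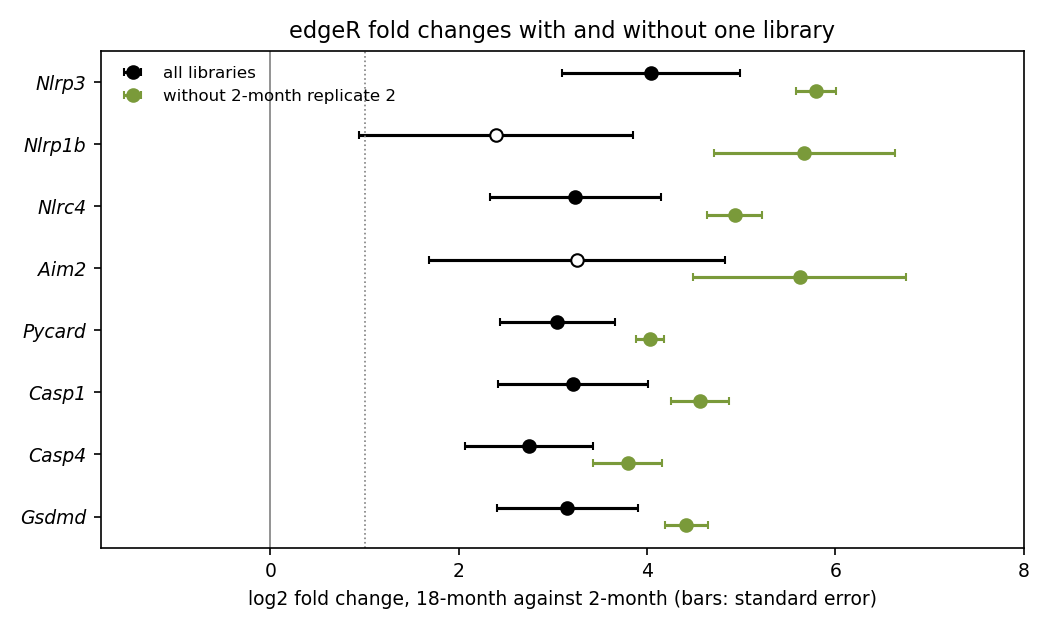
Log2 fold change of each gene, 18-month against 2-month, with its standard error, from the fit of all 6 libraries and from the fit without 2-month replicate 2, with open points where a gene was not called and a dotted line at the limit of 1. All values are above 0, and each is larger without that library, from 2.75 to 3.80 in Casp4 and from 2.39 to 5.67 in Nlrp1b.

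Per length, the order of the mean levels at 18 months was Gsdmd, Pycard, Casp1, Aim2, Casp4, Nlrp3, Nlrc4 and Nlrp1b. Gsdmd made up 37.1% of the summed FPKM of the 8 genes, Pycard 15.9%, Casp1 15.4%, Aim2 12.5%, Casp4 8.7%, Nlrp3 7.03%, Nlrc4 2.75% and Nlrp1b 0.655%. Among neighbours in that order, Pycard and Casp1 overlapped between libraries, as did Casp4 and Nlrp3, and the others did not. The same order held in 2-month replicate 2, where Gsdmd made up 36.6% and Nlrp3 4.16%. In 2-month replicate 3 Casp4 stood above Aim2, and in replicate 1 Aim2 and Nlrp1b were at 0.

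The 2-month libraries did not share one level. In CPM, replicate 1 held 1.47% of the 18-month mean of Nlrp3 and 5.18% of that of Pycard, and the other detected members lay between these. Replicate 3 held 1.9% for Nlrp3 and 9.18% for Casp4 at the extremes. Replicate 2 held 14.5% for Nlrp3, between 23.8% and 30.1% for Casp1, Pycard, Gsdmd, Nlrc4, Aim2 and Casp4, and 52.6% for Nlrp1b. Nlrp3 was the lowest of the 8 on this measure in replicates 2 and 3, and the lowest of the 6 genes detected in replicate 1.

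The summed markers of blood and marrow cells moved with the 8 genes across the libraries. Counts of calls in the marker lists stand beside 14.9% of all genes tested called higher, or 23.3% without 2-month replicate 2. The pan-leukocyte list (Ptprc, Cd53, Laptm5 and Coro1a) summed to 15.2, 432.7 and 44.2 CPM at 2 months and to 2060 to 2215 at 18 months, with 0 of its 4 genes at 0 in any library. Of those 4, 1 was called higher with all libraries and 4 without 2-month replicate 2. The 13 monocyte and macrophage markers summed to 49.6, 668.8 and 122.5 CPM at 2 months and to 2418 to 2578 at 18 months, with 3 called higher, or 12 without 2-month replicate 2, and 2 at 0 in 2-month replicate 1. Replicate 2 thus held 20.5% of the 18-month mean of the first list and 27% of the second, beside 23.8% to 30.1% for 6 of the 8 genes. The 14 neutrophil markers, at 13.2, 3796 and 59.1 CPM against 42450 to 45440, were at 8.56% in that library, with 0 called higher, or 14 without it, and with 1 and 2 at 0 in replicates 1 and 3. Cd14, of the monocyte and macrophage list, did not follow that list, with 1673, 698 and 945 counts at 2 months against 1556, 931 and 953 at 18 months. Its log2 fold change was -0.26, or -0.52 without 2-month replicate 2, and it was called in neither fit. Cd14 supplied most of that list's sum in 2-month replicate 1. In 2-month replicate 2, Csf1r had 10553 counts, beside 13609, 11611 and 11879 at 18 months. Ly6c2 had 4578 there, beside 41052, 37036 and 37764, so the genes of the list did not share its 27%.

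Other lists moved to differing extents. The 8 erythroid markers summed to 204, 5632 and 590.6 CPM against 23360 to 31130, with 2 called higher, or 8 without 2-month replicate 2, and 1 at 0 in replicate 1. Replicate 2 held 19.75% of the 18-month mean of this list, near its share of the pan-leukocyte list. The 5 megakaryocyte markers summed to 4.99, 63.5 and 7.56 CPM against 1253 to 1891, with 4 called higher, or 5 without that library, and with 1 and 2 at 0 in replicates 1 and 3. The 8 T and NK lymphocyte markers summed to 0.558, 13.3 and 0.332 CPM against 121.8 to 141, with 5 called higher, or 8 without that library, and with 3 and 6 at 0 in replicates 1 and 3. These are lists of blood and marrow cells, and their summed levels were all highest in the aged libraries. The 7 B lymphocyte markers summed to 1.99, 231.8 and 4.63 CPM against 160.5 to 193.6, so that replicate 2 was at 135% of the 18-month mean. Of these, 0 were called higher with all libraries and 7 without that library, and 1 was at 0 in replicate 1. The 5 osteoclast markers summed to 65.4, 4058 and 793.3 CPM against 1388 to 1710, or 254.3% of the 18-month mean in replicate 2, with 0 called higher with or without it. The part of any of these cell types in the levels of the inflammasome genes was not tested.

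**Figure D3:**
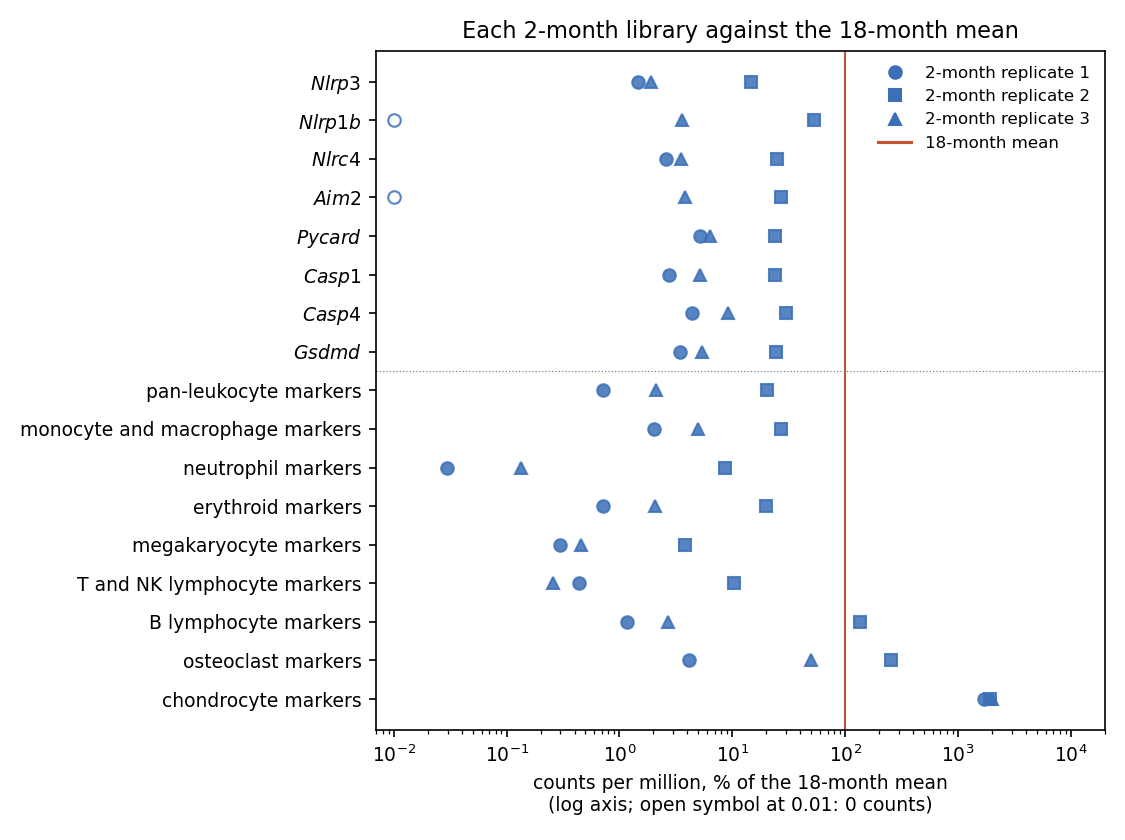
CPM of each of the 8 genes, and summed CPM of each marker list, in each 2-month library as a percentage of the 18-month mean (log axis). In replicate 2 most of the 8 genes lie near the pan-leukocyte (20.5%), monocyte and macrophage (27%) and erythroid (19.75%) lists. In replicates 1 and 3 most detected genes lie above the pan-leukocyte list. Chondrocyte markers lie to the right of the line of the 18-month mean in each.

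Set against the pan-leukocyte counts of the same library, the difference between ages was no longer in one direction. Casp1 stood at 73.6, 22.3 and 47.9 counts per 1000 pan-leukocyte counts in the 2-month libraries and at 17.6, 20.2 and 19.8 in the 18-month libraries. Gsdmd stood at 167.6, 41.5 and 90.7 against 35.2, 33.9 and 36. Pycard stood at 173, 28 and 72.8 against 25, 22.9 and 24. These genes were thus above the 18-month level in all 2-month libraries on this scale, most of all in replicate 1, where the reference was smallest. Nlrp3 stood at 23.2, 8.05 and 10.3 against 12.1, 10.7 and 11.3, so that 2-month replicates 2 and 3 were below every aged library. Against Ptprc alone this held for replicate 2 but not for replicate 3, at FPKM ratios of 0.138 and 0.246 beside 0.202 to 0.234 at 18 months. Laptm5 supplied most of the pan-leukocyte counts in 2-month replicates 1 and 3, with 610 and 1317, but not at 18 months. Casp4, at 79, 18.9 and 56.4 against 10.8, 14.1 and 13.7, was higher in all 2-month libraries. Nlrc4 was too, at 19.1, 6.44 and 8.92 against 5.41, 5.82 and 4.56, whereas Aim2 was at 0, 23.2 and 31.9 against 15.1, 20.1 and 17.2. In replicate 2, the library with the most leukocyte counts at 2 months, 6 of the 8 genes were at 1.16 to 1.47 times the 18-month mean on this scale, Nlrp3 at 0.71 and Nlrp1b at 2.59 times. Against monocyte and macrophage counts these 6 were at 0.877 to 1.11 times, Nlrp3 at 0.537 and Nlrp1b at 1.96. The make-up of that reference differed in replicate 2, as given above for Csf1r and Ly6c2, and these ratios depend on it. Against neutrophil counts all 8 were above the 18-month mean in replicate 2, Nlrp3 at 1.69 times and the others at 2.77 to 6.1 times. The side of the 18-month mean thus depended on the reference for Nlrp3, Pycard, Casp1, Gsdmd and Nlrc4. Pycard (0.884), Casp1 (0.877), Gsdmd (0.895) and Nlrc4 (0.925) were below it only against monocyte and macrophage counts. These ratios are given without a test.

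**Figure D4:**
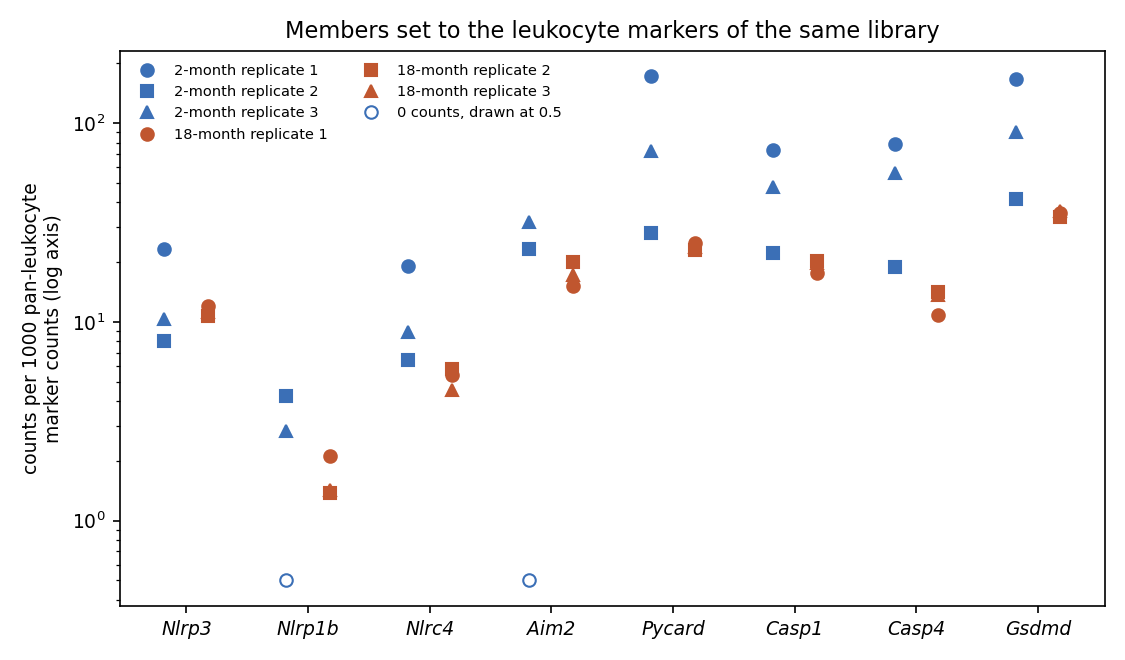
Counts of each gene per 1000 counts of the 4 pan-leukocyte markers in the same library (log axis), by age. The 18-month libraries of a gene lie close together, and 2-month replicate 1 is far above them for Pycard, Casp1, Casp4 and Gsdmd, while Nlrp3 in 2-month replicate 2 (8.05) is below them.

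Of the other genes of the pathway, 61 were listed, 55 had a row in the table and 53 passed the filter on low counts. Of these, 22 were called higher and 0 lower, and their median log2 fold change was 1.68, beside 14.9% called higher, 21.3% called lower and a median of -0.02 over all genes tested. The list counts that follow stand beside the same shares, and those without 2-month replicate 2 beside 23.3% called higher. Rows were not found under the names Casp14, Gsdma2, Gsdma3, Gsdmc, Gsdmc2 and Gsdmc3, and Gsdma and Pjvk did not pass the filter. Each gene named below as called was also called without 2-month replicate 2.

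The list of interleukin-1 family cytokines, receptors and antagonists had 6 of 10 genes called higher and 0 lower, or 7 higher without 2-month replicate 2. With other libraries left out it fell as low as 4, and with other processing of all libraries it ran from 5 to 7. Il1b, the cytokine precursor that caspase-1 cuts, was at 0.148, 2.03 and 0.0822 FPKM at 2 months and at 31.2, 24.6 and 23.7 at 18 months. It rose 34.4-fold (log2 fold change 5.10, SE 1.25, adjusted p = 0.0183, edgeR), and the log2 fold change was 7.64 (SE 0.29, adjusted p = 5.19e-05) without 2-month replicate 2. Il1r2, the decoy receptor of interleukin-1, had a log2 fold change of 5.57 (SE 1.46, adjusted p = 0.0231), from 13, 232 and 4 counts at 2 months. Il18rap, a chain of the interleukin-18 receptor, had one of 5.19 (SE 1.74, adjusted p = 0.0497), from 4, 680 and 26 counts. Its partner chain Il18r1 (4.08, adjusted p = 0.0109), Il1a (3.97, adjusted p = 0.00312) and the interleukin-18 antagonist Il18bp (1.47, adjusted p = 0.00391) were also called. The log2 fold changes without 2-month replicate 2 were 8.68 for Il1r2, 8.99 for Il18rap, 5.35 for Il18r1, 4.71 for Il1a and 1.61 for Il18bp. Il18, named after its values were seen because it is the other main substrate of caspase-1, was at 3.36, 4.47 and 4.33 FPKM at 2 months and 5.01, 5.69 and 6.02 at 18 months, and did not pass (log2 fold change 0.39, SE 0.21, adjusted p = 0.166), nor without 2-month replicate 2 (0.44, adjusted p = 0.162). The difference between Il1b and Il18 was not tested.

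Of 12 other sensors, 4 were called higher and 0 lower. Nlrp12, expressed in myeloid cells, was at 0.0178, 0.334 and 0.0224 FPKM at 2 months and at 3.99, 4.13 and 3.73 at 18 months (log2 fold change 4.95, adjusted p = 0.0171, edgeR). Nlrp6 had 0, 0 and 9 counts against 78, 104 and 113 (4.69, adjusted p = 0.0291), and Nod2, the receptor of muramyl dipeptide, had 27, 89 and 22 against 380, 237 and 299 (2.51, adjusted p = 0.0134). Nlrx1, a mitochondrial family member, differed little between 2-month libraries, at 2.15, 2.6 and 2.5 FPKM against 8.17, 8.02 and 7.78 (1.64, adjusted p = 0.000751). Naip2, a partner of Nlrc4 and the sensor with the highest mean level, was at 0, 2.19 and 0.113 FPKM against 15.3, 12.8 and 13.2 and did not pass (4.16, SE 1.75, adjusted p = 0.0932). Naip genes are close copies of each other, so their separate values are uncertain. With 2-month replicate 2 left out, 10 of the 12 were called higher, and the log2 fold change was 7.41 for Nlrp12, 4.11 for Nlrp6, 3.31 for Nod2, 1.68 for Nlrx1 and 7.79 for Naip2, which then passed (adjusted p = 0.00088).

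Of 7 other caspases, 4 were called higher and 0 lower. Casp8, the initiator of the death receptor pathway, was among them, at 2.86, 9.55 and 4.15 FPKM against 14.5, 15.6 and 16.3 (log2 fold change 1.44, adjusted p = 0.0313, edgeR). Casp2 was another, at 3.24, 5.43 and 3.91 FPKM against 8.62, 10.7 and 9.84 (1.15, adjusted p = 0.00524). In both genes 2-month replicate 2 was the highest of the 2-month libraries, and leaving it out gave 2.04 for Casp8 and 1.35 for Casp2, with 4 of the 7 called. Of the 3 other pore and rupture genes tested, Gsdme, another gasdermin, was called higher, at 1.39, 1.49 and 1.28 FPKM against 3.71, 3.1 and 3.25 (1.20, SE 0.10, adjusted p = 0.0012, or 1.23 without 2-month replicate 2). Its 2-month libraries were alike, unlike those of Gsdmd. Ninj1, which ruptures the membrane after pore opening, was at 50.8, 28.2 and 44.2 FPKM against 28, 23.9 and 25.9, with the aged libraries all below the young ones, but not called (-0.76, SE 0.26, adjusted p = 0.0525). Without 2-month replicate 2 its adjusted p was 0.000607, with a log2 fold change of -0.97 that was short of the limit.

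Among 21 activators, licensing factors and inhibitors, 7 were called higher and 0 lower. Serpinb1a, an inhibitor of neutrophil proteases and of caspase activation, was at 0.302, 15.4 and 0.504 FPKM against 186.7, 192.8 and 193.3 (log2 fold change 5.15, adjusted p = 0.0419, edgeR). The guanylate-binding proteins Gbp5 (3.32, adjusted p = 0.0333) and Gbp2 (1.80, adjusted p = 0.0264), which release microbial ligands, were called, as was Pstpip1, a partner of pyrin (2.17, adjusted p = 0.016). The transcription factor Irf1 (1.68, adjusted p = 0.0167) and the Toll-like receptor adaptor Myd88 (1.68, adjusted p = 0.0018) were called as well. The log2 fold changes without 2-month replicate 2 were 8.76 for Serpinb1a, 5.11 for Gbp5, 2.54 for Gbp2, 2.94 for Pstpip1, 2.26 for Irf1 and 1.91 for Myd88. Txnip, the gene of the list with the highest mean over both ages, was at 215.7, 163.6 and 216.8 FPKM against 139.2, 165.6 and 166.1, and did not pass (-0.43, SE 0.21, adjusted p = 0.131). At 18 months it was below Serpinb1a in every library. Nek7, the kinase that NLRP3 needs, named after its values were seen, was at 15.8, 13.2 and 16.2 FPKM against 9.74, 9.5 and 9.43, with a log2 fold change of -0.74 (SE 0.14, adjusted p = 0.00824) that did not reach the limit of 1. The count called higher in this list ran from 1 without 2-month replicate 3, 2 without 18-month replicate 3, 3 without 18-month replicate 1 or 18-month replicate 2 and 4 without 2-month replicate 1 to 12 without 2-month replicate 2. All genes called in either direction ran from 5640 without 2-month replicate 3 to 9583 without 2-month replicate 2.

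**Figure D5:**
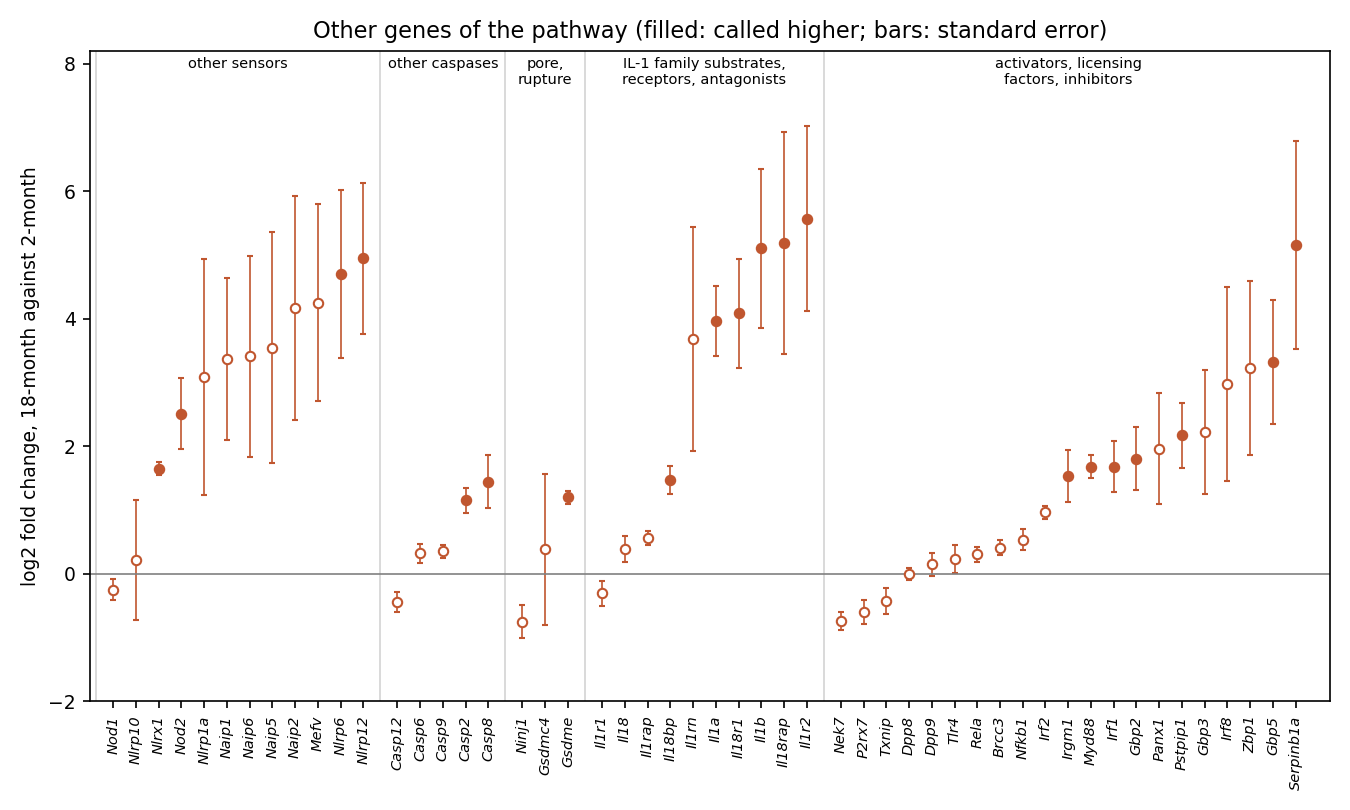
Log2 fold change, 18-month against 2-month, with its standard error for most of the other genes of the pathway, in 5 lists; filled points were called higher. The points called lie above 1 and 0 genes were called lower, and genes below 0 such as Ninj1 (-0.76) and Nek7 (-0.74) are open points.

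The genes whose profile over the 6 libraries was most like that of each member were found as the smallest root mean square difference in log2 CPM after centring, among 13893 genes. The profiles of Casp1 and Gsdmd were closest among the members, at 0.0814, and those of Aim2 and Nlrp1b farthest apart, at 1.22. For Nlrp3 the nearest genes were Unc13d (0.081), Psmb9 (0.109) and Svip (0.112). For Pycard they were Mcm10 (0.0804), H2-DMa (0.0921) and Apoc2 (0.0935), and for Casp1 AI467606 (0.0724), Rad51ap1 (0.0834) and Asf1b (0.0849). Unc13d serves granule release and H2-DMa antigen loading, while Mcm10, Rad51ap1 and Asf1b serve DNA replication and repair. For Casp4 the nearest were Bard1 (0.0604), H2ax (0.0843) and Hpgds (0.108), for Gsdmd Rin3 (0.0851), Ripor2 (0.0968) and Nsl1 (0.0999), and for Nlrc4 Orc1 (0.0938), Ercc6l (0.0965) and Gm37527 (0.132). For Aim2 they were Pik3r5 (0.144), Esco2 and Mrc1 (0.154 each), and for Nlrp1b, with fewer counts, Ighd (0.0783) and Slfn9 (0.126). All 6 points of each profile come from the same libraries, so such likeness follows the shared differences between libraries as well.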

How the data were processed

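RNA-seq libraries of mouse articular cartilage (WT, 3 of each age) were grouped by the age on the labels. The authors' table, as deposited, gave whole-number counts and FPKM per gene and library, per the file headers. The submitters' processing notes name cutadapt 1.9, HISAT2 2.0.4, UMI-tools, StringTie 1.3.4d, DESeq2 and edgeR without their roles. The genome build and the use of strand or of molecular identifiers in counting were not given in the sources used here. Gene positions of the table matched GENCODE M21 (GRCm38) exactly for 29627 of 33971 genes, and for 7 of the 8 members (Casp1 differed at its ends). Promoters came from RefSeq.

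From the deposited counts, edgeR 4.0.16 (R 4.3.3) was used with filterByExpr, TMM and the quasi-likelihood test of age, with Benjamini-Hochberg adjustment over 20397 genes. A gene was called at adjusted p below 0.05 and a log2 fold change beyond 1 in either direction, the limits given with the study's results. Alternatives were other scalings, no filter, DESeq2 1.42.0, limma 3.58.1 on log2(FPKM + 0.1), log2(FPKM + 1) or TPM, no fold limit, a replicate block and leaving out each library. With 3 libraries against 3, an exact permutation test of one gene cannot go below 0.1 (two-sided), so none is given. Intervals and limits from counts cover counting error only.

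The 8 members, the pathway lists and the marker lists were chosen with earlier results of these data known. Named genes were all members, of each pathway list up to 6 called genes by size and the gene of highest mean FPKM, and the 3 genes most like each member (mean FPKM of at least 1). A few genes that this rule names are not reported here, in text or figures, but are part of the counts.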

Additional observations from a re-analysis of the deposited data

How the results depend on the processing

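Over the 9 alternatives that kept all libraries, 6 to 8 of the 8 genes were called higher and 0 lower. No log2 fold change of a member changed sign. Their sizes moved: limma on log2(FPKM + 1), which understates low genes, gave 2.28 for Nlrp3, 1.34 for Nlrc4 and 0.45 for Nlrp1b, and over these alternatives Nlrp3 ran from 2.28 to 4.79, Nlrp1b from 0.45 to 4.06, Nlrc4 from 1.34 to 3.93, Aim2 from 2.60 to 4.81, Pycard from 2.53 to 3.38, Casp1 from 2.65 to 3.77, Casp4 from 2.04 to 3.15 and Gsdmd from 3.10 to 3.66. Aim2 was called with limma on log2(FPKM + 0.1) (adjusted p = 0.0193) and on log2(FPKM + 1) (0.00375), and Nlrp1b with the former (0.0296). Leaving out 1 library, the members called ran from 2 to 8, the other sensors called higher from 3 to 10 and the activators, licensing factors and inhibitors called higher from 1 to 12, as named in the report. All genes called in either direction ran from 5640 to 9583 in these fits. With limma on log2(FPKM + 0.1), 9 other sensors and 12 activators, licensing factors and inhibitors were called higher. With limma on log2(FPKM + 1) these were 7 other sensors and 0 other pore and rupture genes. With limma on log2(TPM + 0.1), which moved the median of all genes to -0.33, 9 other sensors, 2 other caspases and 0 other pore and rupture genes were called higher, and 1 other pore and rupture gene and 1 activator were called lower. With no limit on the fold change, 2 activators were called lower. The cause of these shifts was not tested. Same-numbered libraries correlated at 0.0674, 0.0719 and -0.0644 in their deviations from the group means, and 2-month replicate 3 correlated best with 18-month replicate 1 (0.1). Deviations from a mean of 3 libraries depend on each other, so these values cannot show whether same-numbered libraries shared a batch. With a replicate block, 6 members were called higher, and 6032 genes in all. Low counts limit Nlrp1b, Nlrp6 and, at 2 months, Aim2 and others. In 2-month replicates 1 and 3, Nlrp3 had 17 and 22 counts, Nlrc4 14 and 19, and Il1b 17 and 9. Il1r2 had 13 and 4 there, Il18rap 4 and 26, and Nlrp12 8 and 10. The fits of these genes without 2-month replicate 2 thus rest on few 2-month counts.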
